A study of Mus musculus with 4 samples.

Results

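The genes described here coat the lipid droplet or make and break down the triglyceride it stores. They are the 10 rows whose symbol is Plin2, Plin3, Plin4, Plin5, Pnpla2, Lipe, G0s2, Abhd5, Dgat1 or Dgat2, out of 23420 gene symbols in each count file, and all 10 were found. The rule is a list of symbols with no threshold on a measured value, and it was drawn up with earlier results of these data known. The series holds 4 libraries of polyadenylated heart RNA from a single group: C57BL/6J wild-type mice, the common inbred laboratory strain, 12 weeks old and labelled male, with no treatment, mutation or control group. Per the labels' protocols the RNA came from the frozen apex of the ventricles, although the tissue label names the whole heart. Libraries 1 to 4 carry the numbers of the submitters' titles, and depth ran from 10523709 to 15359296 reads assigned to genes per library.

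Heart muscle burns mainly fatty acids, and part of that supply passes through a small store of triglyceride in lipid droplets. Perilipins cover the droplet surface and control the access of lipases. Adipose triglyceride lipase, the product of Pnpla2, removes the first fatty acid with Abhd5 as its co-activator and G0s2 as its inhibitor. Hormone-sensitive lipase, the product of Lipe, takes the next step, and monoglyceride lipase (Mgll) the last. Dgat1 and Dgat2 encode unrelated enzymes that add the final fatty acid to diacylglycerol.

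Sex-linked transcripts went against the label in libraries 2 and 3. Xist had 5, 1897, 1806 and 19 counts in libraries 1 to 4, while the Y-linked Ddx3y had 341, 0, 1 and 437 counts. Values are therefore given library by library below, so that libraries 1 and 4 can be read alone. Reads were not the only source of spread: for each pair of libraries the chi-square per degree of freedom over genes was 2.22 to 12.6. Separate animals are not stated for the libraries, so every p-value below speaks only of the spread over these 4 samples, part of which may be technical. Cardiomyocyte markers (Myh6, Tnnt2, Actc1, Tnni3, Myl2 and Ryr2) summed to 83403 to 94252 CPM, where CPM is a gene's counts per 1000000 gene counts of its library.

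Together the 10 genes took 0.185 ± 0.0223% of gene counts (SD, n = 4). From library 1 to library 4 they summed to 2020, 1519, 1920 and 1931 CPM, with library 2 the lowest. Plin4, Pnpla2 and Dgat2 were the abundant members, each at 319 CPM or more in every library, and Dgat1 was the scarcest, with no library above 15.4 CPM. The plot of CPM by library shows the spread over libraries beside these differences between genes.

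**Figure D1:**
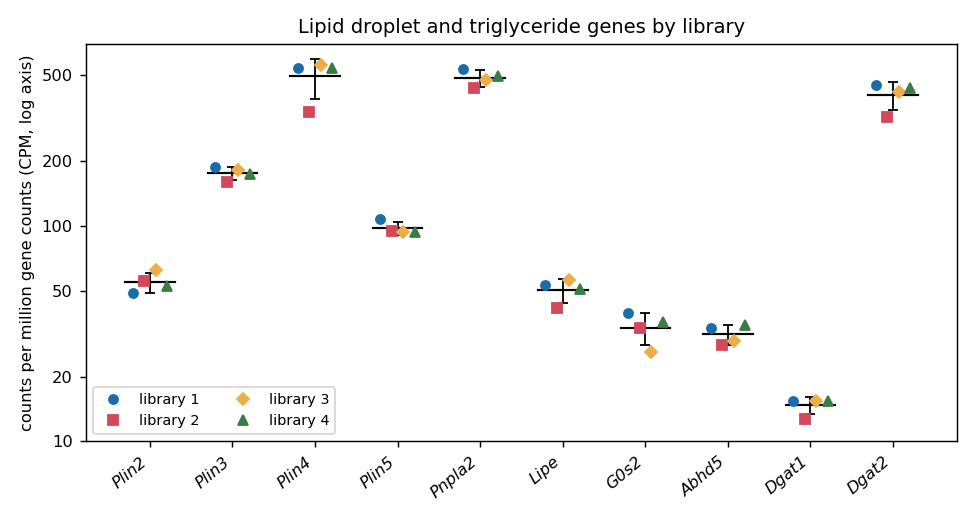
Level of each of the 10 genes in CPM (log axis) in the 4 libraries. Symbols are libraries, the horizontal line is the mean and the bar 1 SD (n = 4); Plin4, Pnpla2 and Dgat2 lie highest, Dgat1 lowest, and library 2 sits apart for Plin4 at 339 CPM.

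Among the perilipins, Plin4 gave most of the counts. Plin4, a coat protein with a long repetitive helical stretch, is at chromosome 17, 56100591 to 56109803, on the minus strand. It had 541, 339, 558 and 541 CPM in libraries 1 to 4. Libraries 1, 3 and 4 lay close together, and library 2 stood at 0.620 times their mean. Exact Poisson limits of 95%, which cover counting error only, ran from 329 to 349 CPM in library 2, and in library 1 from 529 to 553 CPM, so they did not overlap.

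Plin3, the broadly expressed perilipin that moves between cytosol and droplet, lies at chromosome 17, 56277476 to 56292873. It had 189, 159, 182 and 174 CPM, with library 2 again the lowest. Plin5, the perilipin of oxidative tissues that tethers droplets to mitochondria, lies at chromosome 17, 56111601 to 56117596, and had 108, 94.9, 93.8 and 93.9 CPM. For Plin5 it was library 1 that stood apart, above 3 libraries that lay close together. Plin2, the coat protein that rises with stored fat in many cells, lies at chromosome 4, 86648386 to 86670060. Its levels ran another way, at 48.7, 55.8, 62.5 and 52.6 CPM, with library 3 highest and library 1 lowest. No perilipin was highest in library 2.

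Gene length changes this ranking, because a longer messenger RNA yields more fragments. Per kilobase of exon (union of exons in GENCODE M21), Plin4 stood at 85.6 ± 18.0 CPM per kb (SD, n = 4), Plin5 at 46.8 ± 3.35, Plin3 at 46.5 ± 3.35 and Plin2 at 15.6 ± 1.67. Of the summed perilipin level per kb, Plin4 made up 44.8, 36.2, 46.5 and 46.9% in libraries 1 to 4 and Plin5 24.8, 28.1, 21.7 and 22.5%. Plin2 held the smallest share, 6.63, 9.81, 8.58 and 7.5%. Library 2 thus had the smallest Plin4 share and the largest shares of the other perilipins.

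Plin5 exceeded Plin2 per kb by 3.0-fold (log2 ratio 1.59 ± 0.24, SD, n = 4), with 3.74, 2.86, 2.52 and 3.0-fold in libraries 1 to 4. Measured against the longest annotated transcript in place of all exons, the same ratio was 1.69-fold, since the exons of Plin2 span 3512 bases in all but its longest transcript only 1888. Plin4 exceeded Plin2 by 5.39-fold (3.69 to 6.75-fold between libraries), or 2.91-fold by longest transcript. Plin3 exceeded Plin2 by 2.98-fold (2.65 to 3.59-fold), or 1.67-fold by longest transcript. Plin4 exceeded Plin5 by 1.80-fold, and this ratio was the least steady of the perilipin pairs that include Plin5, at 1.81, 1.29, 2.15 and 2.08-fold. Each of these ratios was above 1 in 4 of 4 libraries. Each had p = 0.125 when the signs of the log2 ratios were flipped in all ways (exact permutation test, two-sided) (adjusted p = 0.141 over 18 pairs). That is the smallest p that 4 libraries allow, so no pair could pass 0.05.

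Plin4 and Plin5 are neighbours on the minus strand with 1797 bases between them, and library 2 was lowest for Plin4 but not for Plin5. Their promoters are shown for that reason, with that of Plin2, which was lowest in library 1. The sequences are RefSeq promoter windows on GRCm38.p6, read 5′ to 3′ along the gene and trimmed to the bases outside the GENCODE M21 gene model. Capitals mark matches on either strand to AGGTCA (half-site of nuclear receptors such as the PPARs), CCAAT (the CCAAT box) and GGGCGG (the GC box). TATAAA was searched too, and the stretch shown for Plin4 holds no match to any of the 4. Coordinates are chr4:86670061-86670309 for Plin2, chr17:56109804-56110032 for Plin4 and chr17:56117597-56117798 for Plin5, all on the minus strand.
Plin2: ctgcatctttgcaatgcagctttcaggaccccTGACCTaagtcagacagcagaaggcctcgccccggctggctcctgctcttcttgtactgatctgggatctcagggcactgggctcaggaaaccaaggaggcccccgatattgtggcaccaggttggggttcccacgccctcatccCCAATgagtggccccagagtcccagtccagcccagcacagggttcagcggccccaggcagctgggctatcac
Plin4: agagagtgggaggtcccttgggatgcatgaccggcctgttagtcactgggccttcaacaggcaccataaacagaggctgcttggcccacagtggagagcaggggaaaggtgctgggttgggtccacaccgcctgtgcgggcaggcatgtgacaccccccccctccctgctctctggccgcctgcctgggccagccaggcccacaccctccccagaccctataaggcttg
Plin5: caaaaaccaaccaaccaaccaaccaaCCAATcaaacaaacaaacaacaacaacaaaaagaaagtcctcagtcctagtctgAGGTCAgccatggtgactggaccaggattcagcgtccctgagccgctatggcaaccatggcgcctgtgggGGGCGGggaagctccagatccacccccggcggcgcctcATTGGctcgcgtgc

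RefSeq windows matched 8 of the 10 genes, all but Dgat1 and Dgat2. Plin5 and Lipe have 2 windows each, of which the first listed was used, so that each gene counts with 1 window. Over the whole 250 bases upstream of that start site, AGGTCA was found in 3 of the 8 (Plin2, Plin5 and Abhd5), against 14% of 32851 mouse windows of that length. CCAAT was found in 4 of 8, which are the 4 perilipins, against 33.8%. For Plin4 its match lies 18 to 14 bases before the start site, beyond the stretch printed above. GGGCGG was found in 6 of 8 (Plin3, Plin5, Pnpla2, Lipe, G0s2 and Abhd5) against 32.7%, and TATAAA in 0 of 8 against 12.4%. Each of these 8 windows was richer in G and C than the median of all mouse windows, which was 52.4%. The background shares were not matched for this content, which bears on how often each of the 4 motifs occurs. Whether any difference from them is particular to these genes was therefore not tested. A match describes the letters of the window and is no evidence of a bound factor.

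The repeats of Plin4 bear on how its reads could be counted. In its longest GENCODE M21 transcript (5756 bases, coding bases 129 to 4337), 17.4% of all 50-base stretches occur more than once, against 0% in the longest transcripts of the other 9 genes. The stretch found most often is shown because it makes the repeat visible. It occurs 5 times, starting at transcript bases 784, 1477, 1576, 1972 and 2566.
Plin4 repeat: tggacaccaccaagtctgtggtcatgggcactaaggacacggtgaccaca
The repeated stretches lie between bases 768 and 2902, and the first pair of copies of each was spaced by a multiple of 99 bases, or 33 codons, in 100% of them. Reads that align to more than 1 place are listed apart from the gene counts, and the read length is not given in the sources used here. How many Plin4 reads were lost in this way was not tested.

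Pnpla2 led the lipase genes and, per kilobase, all 10 genes. Pnpla2 lies at chromosome 7, 141455198 to 141460743. It had 538, 436, 477 and 497 CPM in libraries 1 to 4, with library 1 highest and library 2 lowest. Per kb it stood at 161 ± 14.2 CPM (SD, n = 4). Its co-activator Abhd5, at chromosome 9, 122351608 to 122381524, had 33.7, 27.9, 29.4 and 34.6 CPM. Libraries 1 and 4 were the higher pair for Abhd5. Its inhibitor G0s2, a short gene at chromosome 1, 193272161 to 193273217, had 39.6, 33.6, 25.9 and 35.7 CPM, and here library 3 was the low one. Lipe, at chromosome 7, 25379527 to 25398710, had 53.4, 41.5, 55.9 and 50.8 CPM and was lowest in library 2.

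Within a library, Pnpla2 exceeded Abhd5 per kb by 31.5, 30.7, 32.0 and 28.3-fold (log2 ratio 4.93 ± 0.08, SD, n = 4), the steadiest of the 10 ratios fixed for comparison. Counted by longest transcript the mean ratio was 18.7-fold. The ratio of Pnpla2 to its inhibitor G0s2 was smaller and varied more, at 3.92, 3.73, 5.29 and 4.00-fold. Library 3 had the widest gap, and G0s2 was lowest there. Pnpla2 exceeded Lipe by 18.9-fold (16.6 to 20.4-fold between libraries), or 13.7-fold by longest transcript. Mgll exceeded Lipe by 4.93-fold, with 4.55, 6.04, 4.55 and 4.71-fold in libraries 1 to 4. Plin5 stood at 0.291 times Pnpla2 per kb (0.274 to 0.315 between libraries). Every one of these 5 ratios kept its direction in 4 of 4 libraries, with p = 0.125 in the exact sign-flip permutation test (adjusted p = 0.141).

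Counts of Lipe and Abhd5 carry a doubt, since strand was not kept. In GENCODE M21, 15.6% of the exon bases of Lipe are shared with the antisense gene 4732471J01Rik, which had 19, 18, 37 and 29 counts. For Abhd5, 16.0% are shared with the antisense gene A730085K08Rik, which had 1, 0, 0 and 2 counts. Both antisense genes were far below the genes they overlap, at 769, 578, 588 and 781 counts for Lipe and 485, 389, 309 and 531 for Abhd5. Reads in the shared bases may have been set aside as ambiguous. These counts cannot show how many, because the counting mode is not given. The other 8 genes shared at most 0.294% of their exon bases with another gene. Of the 50-base stretches of its longest transcript, 29.0% were also found in another gene for Abhd5, 4.89% for Plin2, 4.59% for Lipe, 1.25% for Plin3 and 0% for the remaining 6 genes. Both strands were searched, so an antisense gene at the same place counts as another gene, as A730085K08Rik does for Abhd5. The share of Abhd5 is therefore not a measure of likeness to genes elsewhere.

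Of the acyltransferases, Dgat2 was by far the more abundant. Dgat2, at chromosome 7, 99153658 to 99182719, had 453, 319, 421 and 436 CPM, with library 2 below the other 3, at 0.732 times their mean. Dgat1, at chromosome 15, 76502015 to 76511953, had 15.3, 12.7, 15.4 and 15.4 CPM on 162 to 237 counts. Its lowest value was also in library 2, but the exact Poisson limits of 95%, at 10.9 to 14.7 CPM there, overlapped those of library 1 at 13.4 to 17.5 CPM. Per kb, Dgat2 exceeded Dgat1 by 29.2, 24.8, 27.0 and 28.0-fold (log2 ratio 4.77 with an SD of 0.10 over 4 libraries; p = 0.125 and adjusted p = 0.141, exact permutation of signs). By longest transcript the fold was 22.9.

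Ordered by level per kb, Pnpla2 came first, followed by Dgat2 (132 ± 19.5 CPM per kb, SD, n = 4), Plin4, Plin5, Plin3 and G0s2 (38.7 ± 6.58). Plin2, Lipe (8.56 ± 1.06), Abhd5 (5.27 ± 0.542) and Dgat1 (4.82 ± 0.437) followed. Of the 45 possible pairs among the 10 genes, 43 had the same order in all 4 libraries. Plin5 and Plin3 did not differ beyond their spread, with Plin5 higher in 2 of 4 libraries (mean log2 ratio 0.0088 with an SD of 0.094 over 4 libraries; p = 0.875, exact permutation of signs). Abhd5 exceeded Dgat1 in 3 of 4 libraries (1.09-fold, exact sign-flip permutation p = 0.25, adjusted p = 0.265).

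Pnpla2 over Dgat2 was 1.23-fold and positive in 4 of 4 libraries, but their ranges overlapped, and by longest transcript the lead held in only 2 of 4 libraries at 1.04-fold. Plin3 over G0s2 was 1.21-fold, again with ranges that overlapped. Other neighbours were set further apart: Dgat2 over Plin4 by 1.56-fold, G0s2 over Plin2 by 2.46-fold, Plin2 over Lipe by 1.83-fold and Lipe over Abhd5 by 1.62-fold. By longest transcript, G0s2 over Plin2 shrank to 1.32-fold and held in 3 of 4 libraries. The bar plot of levels per kb sets the length measures side by side.

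**Figure D2:**
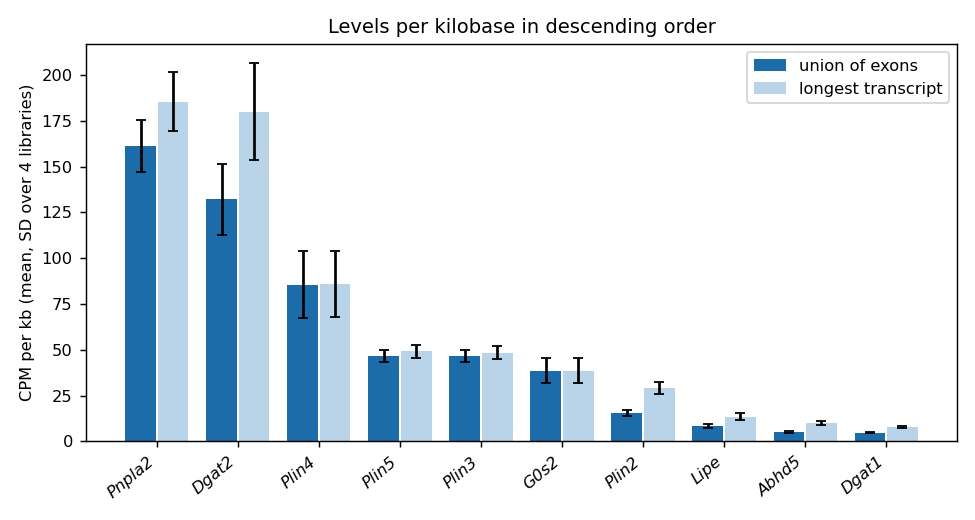
Mean level per kilobase (CPM per kb) of the 10 genes in descending order, with bars of 1 SD over 4 libraries. Dark bars divide by the union of exons and light bars by the longest transcript; Plin2 stands at 15.6 CPM per kb by the first measure and 29.1 by the second, and Dgat2 at 132 and 180.02.

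Spread between libraries was tested in the 12358 genes whose mean reached 1 CPM. For each gene, edgeR's quasi-likelihood fit gave a variance ratio, the spread between libraries over that of genes of similar abundance. None of the 10 genes was called at a Benjamini-Hochberg adjusted p under 0.05, where 0.445% of all tested genes were called. At an unadjusted p under 0.05 there were 3 of 10 (Plin4, Dgat2 and G0s2), against 6.0% of tested genes. The counts of called members were likewise 0 by limma, which had 3 at an unadjusted p under 0.05, and 0 as dispersion outliers of DESeq2. Over all 12358 tested genes limma called 50, and 139 were dispersion outliers of DESeq2. With no filter on low counts, edgeR called 1 of the 10, Plin4, and 258 of all 17447 genes then tested.

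Plin4 had the largest variance ratio of the 10, 16.2 (edgeR, adjusted p = 0.13), and 0.939% of tested genes had a larger one. It rested on library 2: without that library the ratio was 0.429 and the adjusted p 0.996 (edgeR). In libraries 1 and 4 alone the ratio was 0.0504. With no low-count filter the adjusted p was 0.000835, and over all alternatives it ran from that value to 0.999 (edgeR and limma). Dgat2 had a ratio of 7.17 (edgeR, adjusted p = 0.511, and 0.0789 to 0.996 over the alternatives), which was 0.438 without library 2 and 12.1 without library 3. G0s2 had a ratio of 4.58 (edgeR, adjusted p = 0.777, and 0.366 to 0.994 over the alternatives). Without library 3 it was 1.3, and without library 2 it was 8.51.

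The other members were nearer the trend, with ratios of 3.50 for Lipe, 2.68 for Plin2, 2.24 for Pnpla2, 1.59 for Plin3, 1.51 for Abhd5, 1.21 for Plin5 and 0.902 for Dgat1. The median over the 10 genes was 2.46 and over all tested genes 0.852. The coefficient of variation of Dgat1 over libraries was 9.07%, and the value that counting error alone would give was 7.17%. For Plin4 the corresponding values were 21.1% and 1.26%.

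**Figure D3:**
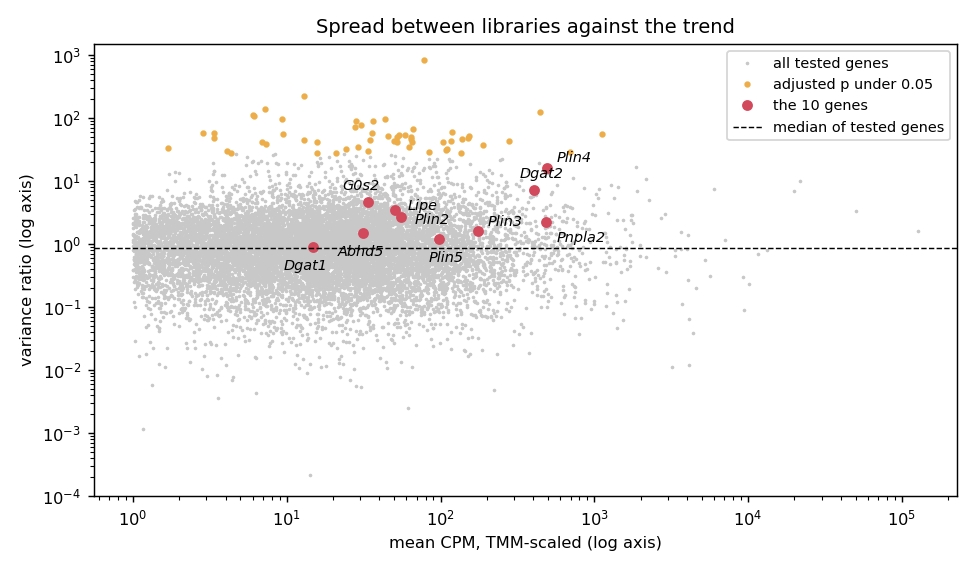
Variance ratio (spread between libraries over the trend, log axis) against mean CPM (log axis) for 12358 tested genes in grey. Genes at an adjusted p under 0.05 are yellow, the 10 genes red and the dashed line is the median of 0.852; Plin4 at 16.2 and Dgat2 at 7.17 lie highest of the 10, below the called genes.

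Library 2 was the lowest of the 4 for 7 of the 10 genes: Plin3, Plin4, Pnpla2, Lipe, Abhd5, Dgat1 and Dgat2. Over all tested genes that share was 30.7%. The value in library 2, divided by the mean of the other 3 libraries, had a median of 0.862 over the 10 genes and 0.994 over all tested genes. It was below 0.8 for 3 of 10 (Plin4, Lipe and Dgat2), where 11.4% of tested genes were. That limit was chosen after the values were seen. The 3 genes not lowest in library 2 had ratios nearer 1: Plin2 at 1.02, G0s2 at 0.996 and Plin5 at 0.962. Library 1 was the lowest for 1 gene (19.8% of tested genes), library 3 for 2 (33.4%) and library 4 for 0 (16.1%). Library 1 was the highest for 5 genes (21.6% of tested genes), library 3 for 3 (22.9%), library 4 for 2 (27.0%) and library 2 for 0 (28.5%). Library 2 also had the largest share of counts on Rn45s, the ribosomal RNA precursor, at 14.1% against 11.9 to 12.8% in the others. With Rn45s left out of the total, or with TMM factors (trimmed mean of M-values) on the library sizes, library 2 was again lowest for 7 of the 10, the same genes. Libraries 1 and 4, whose sex-linked transcripts fit their label, differed from each other by less than library 2 did from them for Plin4 (541 and 541 CPM) and Dgat2 (453 and 436 CPM). The same held for Plin3, Pnpla2, Lipe, Abhd5 and Dgat1, but not for Plin2, Plin5 or G0s2. Plin5 had 108 and 93.9 CPM in libraries 1 and 4, against 94.9 in library 2. Library 3, whose transcripts also went against the label, had 558 CPM for Plin4 and 421 CPM for Dgat2, near libraries 1 and 4.

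**Figure D4:**
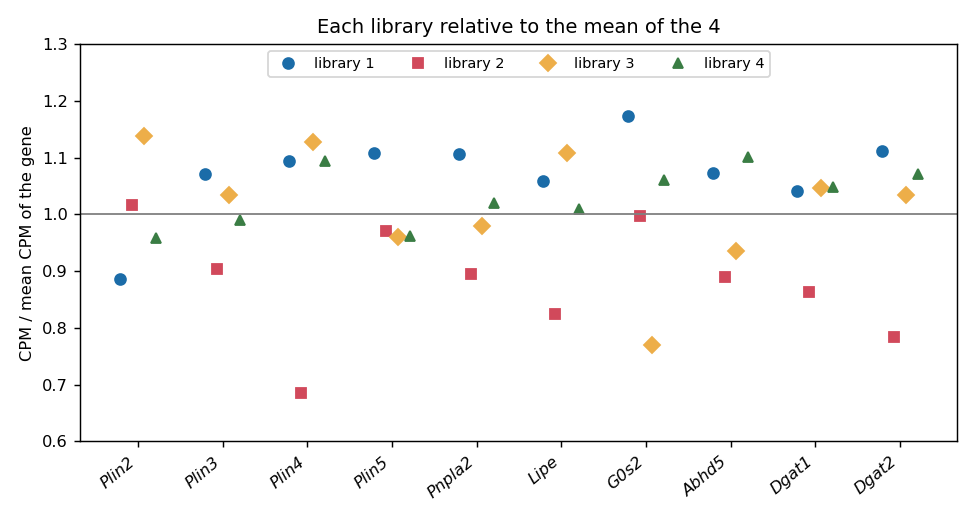
CPM in each library divided by the mean CPM of the gene over the 4 libraries, for the 10 genes; the grey line marks a value equal to the mean. Library 2 (squares) is the lowest point for 7 genes, library 3 (diamonds) for Plin5 and G0s2, and library 1 (circle) for Plin2.

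Fat cells on the heart surface are rich in several of these transcripts, so their markers were measured. Adipocyte genes that define the cell were at or near 0. Adipoq had 0, 12, 4 and 3 counts, Plin1, the perilipin of fat cells, 5, 9, 13 and 6, and Cidec 11, 7, 16 and 14. Retn had 0, 2, 3 and 0 counts, Lep 0, 0, 4 and 1, Adrb3 2, 2, 5 and 0, and Ucp1 0 in all 4 libraries. Cfd had 19, 73, 56 and 25 counts and Car3 31, 66, 69 and 26. These 9 markers summed to 4.72, 12.3, 16.2 and 4.88 CPM in libraries 1 to 4. They were higher in libraries 2 and 3. The remaining 2 markers of the list are also made outside fat. Fabp4, which capillary endothelium makes, had 457, 331, 392 and 468 CPM, and Pparg 13.9, 6.75, 7.41 and 12.0 CPM. The full list of 11 markers summed to 350 to 485 CPM, nearly all of it Fabp4. Of the 11 adipocyte markers 4 could be tested and edgeR called 0, with 4 at an unadjusted p under 0.05. Over all tested genes these shares were 0.445% and 6.0%.

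Markers of other cell types were measured in the same way. Endothelial markers summed to 1065 to 1083 CPM, fibroblast markers to 822 to 946 CPM, macrophage markers to 179 to 225 CPM and smooth muscle markers to 342 to 386 CPM. Steroidogenic markers, of another droplet-rich cell type, summed to 2.36 to 3.06 CPM. In these lists edgeR called 0 genes of 6, 6, 6, 4 and 1 tested (2, 2, 1, 2 and 0 at an unadjusted p under 0.05). In cardiomyocyte markers it called 0 of 6, with 0 at an unadjusted p under 0.05. Of all tested genes, edgeR called 0.445%, and 6.0% were at an unadjusted p under 0.05. Library 2 had the lowest sum of macrophage and of smooth muscle markers, and the highest sum of fibroblast markers. Endothelial markers summed to 1065, 1083, 1082 and 1082 CPM in libraries 1 to 4, so library 2 did not stand apart there. Cardiomyocyte markers summed to 84032, 83896, 94252 and 83403 CPM, so that library 3 was the one apart. In bulk RNA, fewer cells of a type and less RNA per cell cannot be told apart, and the part of cell makeup in the values of the 10 genes was not tested.

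No gene was called in 3 lists of further droplet and triglyceride genes, where edgeR called 0.445% of all tested genes. At an unadjusted p under 0.05 (edgeR) were 6.0% of all tested genes. Genes of droplet assembly summed to 434, 426, 416 and 409 CPM, and edgeR called 0 of 10 tested (0 at an unadjusted p under 0.05). They were led by Fitm1 (123 ± 8.80 CPM, SD, n = 4) and Fitm2 (98.2 ± 9.05), which partition triglyceride into droplets, and by Aup1 (47.6 ± 0.499). Their median variance ratio was 0.509.

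Genes of glycerolipid synthesis summed to 988, 982, 961 and 994 CPM, with 0 of 12 called and 2 at an unadjusted p under 0.05 (edgeR). Lpin1, the main phosphatidic acid phosphatase of muscle, led at 275 ± 29.2 CPM (SD, n = 4), with Agpat3 at 223 ± 10.1 and Gpam, which catalyses the first acylation of glycerol phosphate, at 206 ± 18.4. Lpin1 was highest in library 2, at 262, 319, 255 and 267 CPM. Its relative Lpin2, chosen after its values were seen, had 25.8, 14.9, 12.2 and 25.2 CPM, low in libraries 2 and 3, with a variance ratio of 16.0 (edgeR, adjusted p = 0.133).

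The list for lipolysis and its control summed to 524, 522, 524 and 534 CPM. It also holds genes of glycerol phosphate metabolism such as Gpd1. Of its genes 0 of 11 were called, with 1 at an unadjusted p under 0.05 (edgeR). Mgll led at 213 ± 5.80 CPM, followed by the carboxylesterase Ces1d at 87.0 ± 4.86 and the glycerol phosphate dehydrogenase Gpd1 at 63.1 ± 4.39 (SD, n = 4). Library 2 did not stand apart in the sums of these 3 lists, whereas it had the lowest sum over the 10 genes. A sum can hide opposite orders of single genes. In glycerolipid synthesis Lpin1 was highest in library 2 (319 CPM) and Gpam lowest there (186 CPM). Library 2 was lowest for 4 of 10, 5 of 12 and 3 of 11 tested genes of the lists, against 30.7% of all tested genes. That difference between lists was not tested.

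PPAR-alpha switches on several genes of fat use in fasting, the coat gene Plin2 among them. The list drawn up for such targets also holds Ppara, the gene of PPAR-alpha itself, and the regulator gene Ppargc1a. In that list edgeR called 2 of 17 tested, against 0.445% of all tested genes. At an unadjusted p under 0.05 (edgeR) were 5 of the 17, against 6.0%. The median variance ratio of the list was 2.72. Pdk4, which shuts off pyruvate oxidation, had 261, 158, 400.4 and 293 CPM (edgeR, adjusted p = 0.0169). Angptl4, an inhibitor of lipoprotein lipase, had 6.66, 1.37, 15.4 and 5.60 CPM (edgeR, adjusted p = 0.0218). Both were lowest in library 2 and highest in library 3. Plin4 and Lipe had that order too, while Plin2 was highest in library 3 and lowest in library 1. For Plin4 and Lipe the lead of library 3 was small, and its exact Poisson limits of 95% overlapped those of library 1. In libraries 3 and 1 these limits were 543 to 572 and 529 to 553 CPM for Plin4. For Lipe they were 51.4 to 60.6 and 49.7 to 57.3 CPM. Plin3, Pnpla2, Dgat2, Abhd5 and Dgat1 were also lowest in library 2, but were highest in library 1 or library 4. Among all tested genes, library 2 was lowest for 30.7% and library 3 highest for 22.9%, and the share with both was not counted. Whether PPAR-alpha or fasting had a part in these orders was not tested. The most abundant genes of the list were Fabp3 (4034 ± 273 CPM), Hadha (1693 ± 102) and Acsl1 (1017 ± 33.6; SD, n = 4). Of its 17 tested genes, 14 were lowest in library 2, as were 30.7% of all tested genes.

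The tested genes most like Plin4 over the 4 libraries were found by the root mean square difference of log2(CPM / mean CPM), over 12352 genes with counts in every library. They were Srpx at 0.025, Ankrd16 at 0.027 and Arid5b at 0.028. Srpx was scarce, at 2.08, 1.37, 2.19 and 2.15 CPM in libraries 1 to 4, with a variance ratio of 0.828 (edgeR). Its rank was not tested against counting error. With 4 libraries such likeness is common: 103 genes lay within 0.1. The nearest of the other members was Dgat2, at 0.118 and rank 181, then Lipe at 0.148 and rank 388. The adjacent gene Plin5 had rank 4521, and G0s2 the last rank among the members, 9378.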

How the data were processed

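Each deposited file gives 1 library's raw read counts for every gene symbol, made by the authors from non-strand-specific single-end libraries. The submitters' processing notes name HTSeq, TopHat2 2.0.10, TopHat, Bowtie2, edgeR, DESeq and mm10, with no roles. The annotation used for counting is not given in the sources used here, nor is the counting mode. The 5 closing rows that name no gene (9.16 ± 0.145% of listed reads, SD, n = 4) were left out. CPM is counts per 1000000 gene counts. A count of 0 allows up to 3 counts, or 0.195 to 0.285 CPM. Lengths and positions are from GENCODE M21 (GRCm38, which mm10 denotes), matched for 98.5% of symbols. Spread was tested with edgeR 4.0.16 in R 4.3.3 (intercept only, TMM factors 0.986 to 1.01, trended dispersion, robust quasi-likelihood prior, upper-tail F test with 7.42 prior and 3 residual degrees of freedom, genes of mean 1 CPM or more). The test was also run on counts simulated from its own fitted trend and prior. Such counts cannot show how it behaves where the data depart from that fit. Pair ratios are log2 of counts per kb with 0.5 added, tested by a two-sided exact sign-flip permutation over 4 libraries, adjusted over 18 pairs. Alternatives were other scalings (DESeq2 1.42.0 size factors, no factor), no filter, another prior, limma 3.58.1, other lengths, and libraries left out. Named were the 10 genes, the 3 most abundant and any called genes of each pathway list, all adipocyte markers and the 3 genes most like the member of largest variance ratio; others are said to be chosen after their values were seen. The members and the 11 lists were chosen with earlier results of these data known.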

Additional observations from a re-analysis of the deposited data

Results flagged for a closer look

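Of 30 values examined over the 4 libraries, 6 had a single library far from the other 3, by the gap to its nearest neighbour as a share of the whole range. Chance flags about 1 in 20 groups. Many of the 30 values share genes and so are not independent, and the number of flags was not tested against chance. The gap was 0.925 of the range for Plin4 CPM, with library 2 low, and 0.965 for Dgat1 CPM, also with library 2 low. The coefficient of variation of Dgat1 was 9.07%, where counting error alone would give 7.17%. For Plin5 CPM the gap was 0.922, with library 1 high. The log2 ratio per kb of Mgll over Lipe had a gap of 0.875, with library 2 high. That of Plin3 over G0s2 had a gap of 0.924, with library 3 high, and that of Abhd5 over Dgat1 a gap of 0.871, with library 3 low.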

How the results depend on the processing

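The count of 0 called members was the same under each alternative except no filter on low counts, where it was 1 (Plin4). Over all tested genes the 55 calls became 258 with no filter, where 17447 genes were tested in place of 12358. They became 10 with a prior that was not robust, 139 as DESeq2 dispersion outliers and 6 in libraries 1 and 4 alone. Without 1 library each they ran from 39 to 69. With Rn45s out of the total the sum of the 10 genes was 2116 CPM in place of 1848. Without length correction, Dgat2 over Plin4 reversed to a log2 ratio of -0.27, Plin5 over Plin3 to -0.85 and G0s2 over Plin2 to -0.71. Plin5 over Plin3 ran from -0.026 to 0.045 with 1 library left out. The cause of the changes in calls was not tested. None of the 10 fixed ratios reversed under any alternative run. No paired analysis was possible because the labels give a single group. Leaving Rn45s out of the genes, chosen after seeing the data, left 0 members called.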
